A study of Mus musculus with 4 samples.

Results

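Microglia nuclei of the posterior substantia innominata, a small area of the mouse basal forebrain, numbered 566 among 38868 nuclei kept from 4 droplet single-nucleus RNA sequencing libraries. A nucleus was taken as a microglia nucleus when it held at least 3 unique molecular identifiers (UMIs, counted RNA molecules) of Inpp5d, Csf1r and Dock8 together, with at least 2 of these genes detected. It also had to hold at most 2 UMIs of the neuronal genes Syt1, Snap25 and Rbfox3, at most 1 of the oligodendrocyte genes Mog and Mag, and at most 1 of the astrocyte genes Gja1 and Aqp4. The libraries were 2 from wild-type males and 2 from wild-type females, all 8 weeks old and without a treatment in the labels, from a study that set out to measure sex differences in the neurons of this area. The labels give no strain and do not tell if the animals behind libraries of the same sex were different ones. The p-values below therefore reflect the spread between samples alone, and that spread may be technical.

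Microglia are the resident macrophages of the brain. They arise from yolk sac precursors, are kept alive by signals through the colony-stimulating factor 1 receptor (Csf1r), and are shaped by transforming growth factor beta. The factors PU.1 (gene Spi1), Irf8, Runx1 and Sall1 set and hold their identity, and purinergic receptors such as P2ry12 guide their processes toward injury.

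Male 1 gave 141 microglia nuclei, male 2 gave 119, female 1 gave 111 and female 2 gave 195. Their share of the kept nuclei was 1.60% for male 1 (exact Clopper-Pearson 95% interval 1.35% to 1.88%, counting error only) and 1.39% for male 2 (1.15% to 1.66%). For female 1 it was 1.02% (0.840% to 1.23%) and for female 2 it was 1.84% (1.60% to 2.12%). The females held both the lowest and the highest share, and the males lay between them. The share averaged 1.49% ± 0.148 in males and 1.43% ± 0.582 in females (SD, n = 2 each), a difference of 0.0607 percentage points that was smaller than the spread between libraries (two-sided exact permutation test, p = 1, where 2 against 2 cannot go below 0.333). When every nucleus was thinned to 1000 UMIs and the marker limit lowered to 2, males had shares of 1.74% and 1.43% and females of 1.07% and 1.81%.

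Microglia nuclei held fewer UMIs than the other kept nuclei, most of which are neurons. Their median was 1858 and 1989 UMIs for males 1 and 2, and 1372 and 1374 UMIs for females 1 and 2, against 10528, 10125, 4221.5 and 3883 UMIs in all other kept nuclei of the same libraries. Other nuclei with at most 2 neuronal UMIs were closer, with medians of 2588, 2469, 1809 and 1455 UMIs, and the selection itself limits the UMIs of other-cell genes. Summed over the microglia nuclei there were 301482, 256241, 193235 and 296625 UMIs, so that 3 UMIs, the level used here as the floor, correspond to between 9.95 and 15.5 CPM. CPM, the unit of all levels below, is the count per 1000000 summed UMIs of the same nuclei and library; they are not divided by gene length, so levels of different genes are not ranked. The software version that wrote the counts, the gene list, the set of barcodes and the depth all changed with sex, and their effects cannot be told apart from it.

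The label was checked on genes that the selection did not use. Ly86, a partner of a Toll-like receptor homologue, had 1682, 1678, 621 and 1190 CPM in the microglia nuclei of male 1, male 2, female 1 and female 2, against 10.2, 8.64, 6.63 and 10.5 CPM in the other nuclei. Cx3cr1, the fractalkine receptor, had 779, 796, 502 and 887 CPM in microglia nuclei, against 7.36, 6.53, 22.5 and 13.3 CPM in the others. In each library the microglia nuclei were far above the other nuclei for both genes, and all 7 measured microglia markers outside the selection were at least 4-fold higher in all 4 libraries. As these nuclei were chosen on genes of the same cells, every difference between them and the other nuclei is given as a description, without a test.

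At the level of single nuclei the same markers were not seen everywhere. Neuron nuclei here held at least 3 UMIs of Syt1, Snap25 and Rbfox3 together and met the oligodendrocyte and astrocyte limits. They also held at most 1 UMI of Inpp5d, Csf1r and Dock8 together. Their low shares for microglia genes are therefore partly set by this choice. A Ly86 UMI was found in 90.1% and 88.2% of male microglia nuclei and in 53.2% and 72.3% of female ones, against 0.729%, 0.931%, 0.394% and 0.555% of neuron nuclei, whose median depths were 11706, 11278, 5101 and 4911 UMIs in the order male 1, male 2, female 1, female 2. After thinning to 1000 UMIs the shares for Ly86 were 75.9%, 74.8%, 37.5% and 61.8%. P2ry12 was seen in 89.4%, 91.6%, 52.3% and 70.8% of microglia nuclei, against 13.6%, 13.7%, 28.8% and 15.4% of neuron nuclei. P2ry12 UMIs in neuron nuclei were thus most frequent in female 1, and far more frequent than those of Ly86; their source was not tested. Apoe behaved otherwise, with a UMI in 29.8%, 25.2%, 38.7% and 71.8% of microglia nuclei, against 37.6%, 36.7%, 33.9% and 69.8% of neuron nuclei. As the neuron nuclei were deeper, these similar shares do not mean similar levels. In CPM, given below, Apoe was higher in microglia nuclei than in all other kept nuclei of each library. The source of the Apoe UMIs in either group was not tested.

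Nuclei just outside the marker limit carried the same microglia genes as those just inside it. In female 2, the 31 nuclei with 3 marker UMIs had 1062 CPM of Ly86 and 926 CPM of P2ry12, against 864 CPM and 1004 CPM in the 37 nuclei with 2 marker UMIs. In female 1, 20 nuclei lay on each side, with 662 CPM of Ly86 and 383 CPM of P2ry12 inside the limit and 390.4 CPM and 319 CPM outside it. Nuclei with 0 or 1 marker UMIs had between 16.4 and 46.4 CPM of P2ry12. The males had 2 nuclei on each side of the limit.

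**Figure D1:**
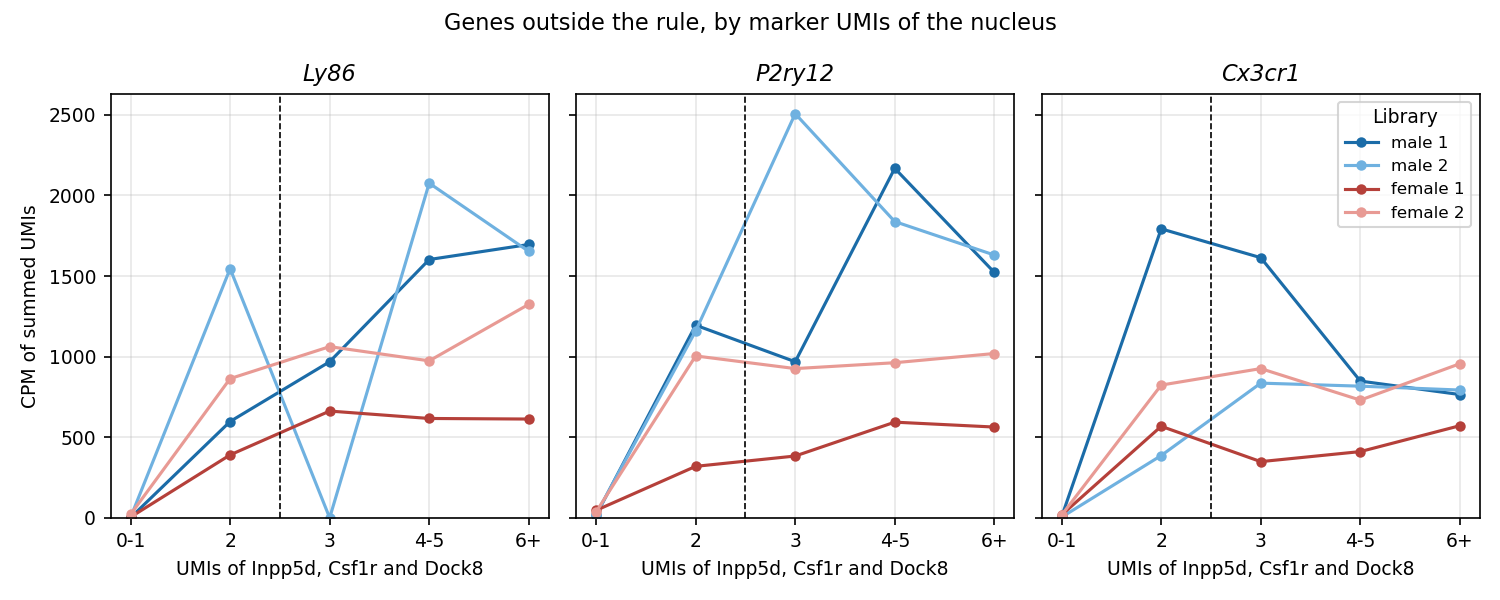
CPM of Ly86, P2ry12 and Cx3cr1, genes that the selection did not use, in nuclei grouped by their UMIs of Inpp5d, Csf1r and Dock8 together (x axis), with the limits on other cell types met. Each line is 1 library and the dashed line is the selection limit of 3 UMIs; the levels are lowest at 0 or 1 marker UMIs except for Ly86 in male 2, where the 2 nuclei with 3 marker UMIs held no UMI of it, and the male points at 2 and 3 UMIs rest on 2 nuclei each.

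Another set of nuclei met the marker limit but failed a limit on neuronal, oligodendrocyte or astrocyte genes: male 1 held 249 of them, male 2 held 200, female 1 held 199 and female 2 held 159. Their median depths were 16530, 18172, 8257 and 6728 UMIs, well above those of microglia nuclei. They had 204, 184, 122 and 219 CPM of Ly86, and they count among the other kept nuclei. Without them, the log2 fold of Siglech over the other nuclei was 8.79, 8.68, 7.50 and 7.75 in place of 6.86, 7.23, 6.35 and 6.76.

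Some microglia nuclei held RNA of other cell types for which the selection set no limit or a loose one. Nuclei with at least 3 UMIs of at least 2 genes of any list of other cell types were 20 of the 141 and 13 of the 119 in the male libraries, and 31 of the 111 and 48 of the 195 in the female libraries. The 4 oligodendrocyte markers that the selection did not use summed to 295 and 336 CPM in male microglia nuclei and to 1749 and 927 CPM in female ones, against 410, 421, 996 and 764 CPM in the other nuclei. In male 1, 6 nuclei held 243 of the 260 UMIs of oligodendrocyte precursor genes (Pdgfra, Vcan, Cspg4 and Lhfpl3). Where these markers move with a result below, their part in the result was not tested. For some results a value without these nuclei is given.

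Markers of other immune cells were low. Of the markers of perivascular and border macrophages, Mrc1, the mannose receptor, had 6.63 and 46.8 CPM in male microglia nuclei and 5.17 and 97.8 CPM in female ones, and F13a1 had 0, 19.5, 0 and 155 CPM. In female 2, 2 nuclei held 107 of that library's 156 UMIs of the list, and in male 2 a single nucleus held 17 of 51. The exception was Stab1, a scavenger receptor, with 169, 125, 114 and 196 CPM in microglia nuclei against 1.02, 0.954, 2.47 and 2.78 CPM in the others. Of 9 T and NK cell markers, Cd3e, Cd3d, Cd3g, Cd2, Nkg7, Gzma and Klrb1c had no UMI in any microglia nucleus, and of the monocyte and neutrophil markers Ly6c2, S100a9, Chil3 and Retnlg had none.

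**Figure D2:**
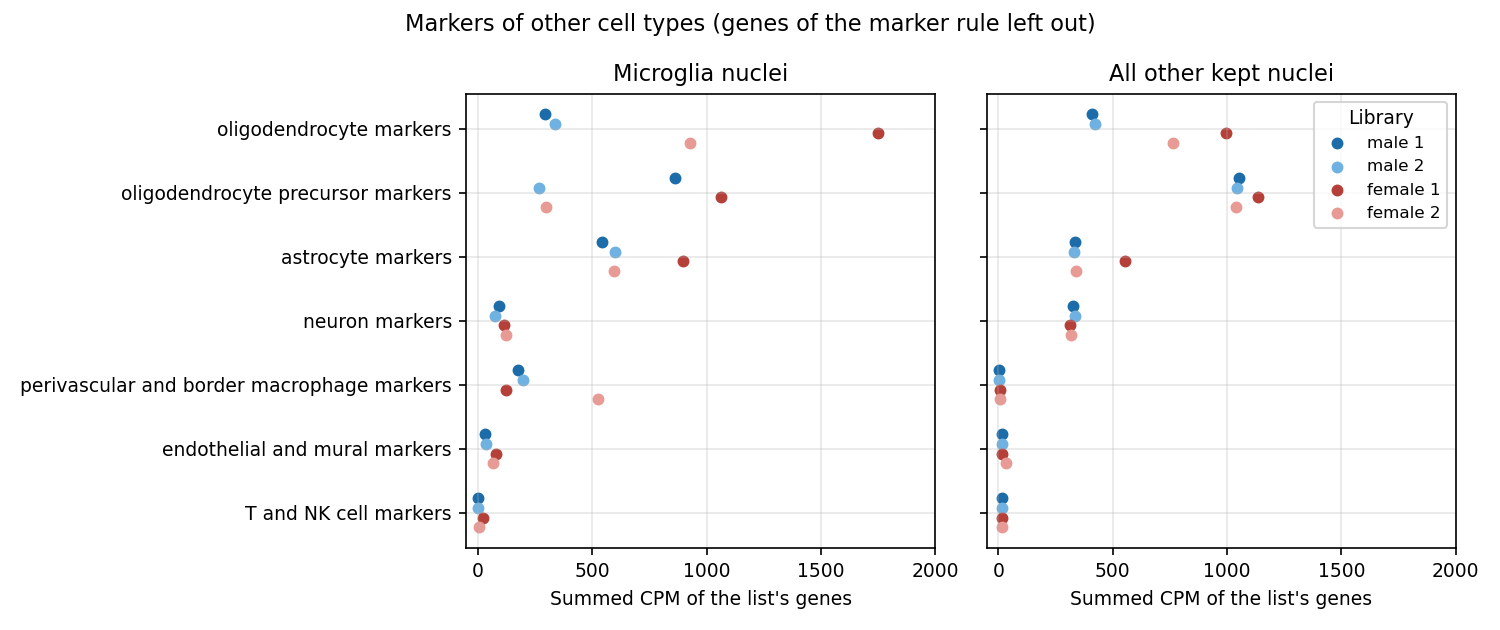
Summed CPM of marker genes of other cell types in microglia nuclei (left) and in all other kept nuclei (right), with 1 point per library and the genes used by the selection left out. Oligodendrocyte markers in microglia nuclei summed to 295 and 336 CPM for the male libraries and to 1749 and 927 CPM for the female libraries.

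Across the transcriptome, 460 of 27434 genes with a UMI, or 1.68%, were at least 4-fold higher in microglia nuclei than in all other kept nuclei in each of the 4 libraries and reached at least 50 CPM in each (fold on the scale of log2 of CPM + 1; the 10 genes of the selection left out). They included 431 protein-coding and 29 other genes. Another 147 genes were at least 4-fold lower in all 4 libraries with at least 50 CPM in the other nuclei. Against other nuclei with at most 2 neuronal UMIs, 376 genes passed, of which 338 were among the 460.

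The first 3 genes were Siglech, Ly86 and Ptprc. Siglech, a sialic acid-binding lectin of mouse microglia (chr7:55768178-55778925, plus strand, GRCm38), had 627, 683, 730 and 836 CPM in microglia nuclei, against 4.39, 3.56, 7.95 and 6.70 CPM in the other nuclei, which is 81.7-fold to 150-fold higher. Ly86 (chr13:37345208-37419036, plus strand) was 81.5-fold to 174-fold higher. Ptprc, the phosphatase CD45 of all nucleated blood cells (chr1:138062861-138175708, minus strand), had 634, 546, 518 and 492 CPM in microglia nuclei, against 4.17, 3.55, 5.51 and 4.03 CPM in the others. The levels of Siglech and Ptprc differed little between libraries, whereas Ly86 in female 1 was well below the other libraries.

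Among the next genes were regulators of the actin skeleton. Fgd2, an exchange factor for the GTPase Cdc42, had 388, 410, 430 and 378 CPM in microglia nuclei, against 2.65, 2.64, 4.43 and 3.25 CPM in the others. Nckap1l, the blood-cell subunit of the actin-nucleating WAVE complex, had 444, 457, 362 and 347 CPM, against 2.93, 2.50, 3.85 and 2.38 CPM. Arhgap45, Rhoh and the Arf exchange factor Cyth4 were also among the 25 leading genes, as were the signalling adaptors Fyb, Pik3ap1 and Blnk. In all of these the lowest microglia library exceeded the highest library of the other nuclei.

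Receptors among the 25 leading genes were Il6ra and Csf3r, for interleukin 6 and granulocyte colony-stimulating factor, together with the surface proteins Cd37, Selplg and Cd84. Adap2, Gna15 and Rcsd1 completed the protein-coding genes outside the transcription factors. There were 2 noncoding genes. Gm2629 had 1078, 1081, 481 and 519 CPM in microglia nuclei, against 6.28, 5.63, 5.06 and 4.51 CPM in the other nuclei. Gm10790 had 1032, 1050, 564 and 893 CPM, against 5.48, 4.60, 6.26 and 6.22 CPM. Over the 25 genes, the smallest log2 fold of any library was between 5.89 and 6.35.

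**Figure D3:**
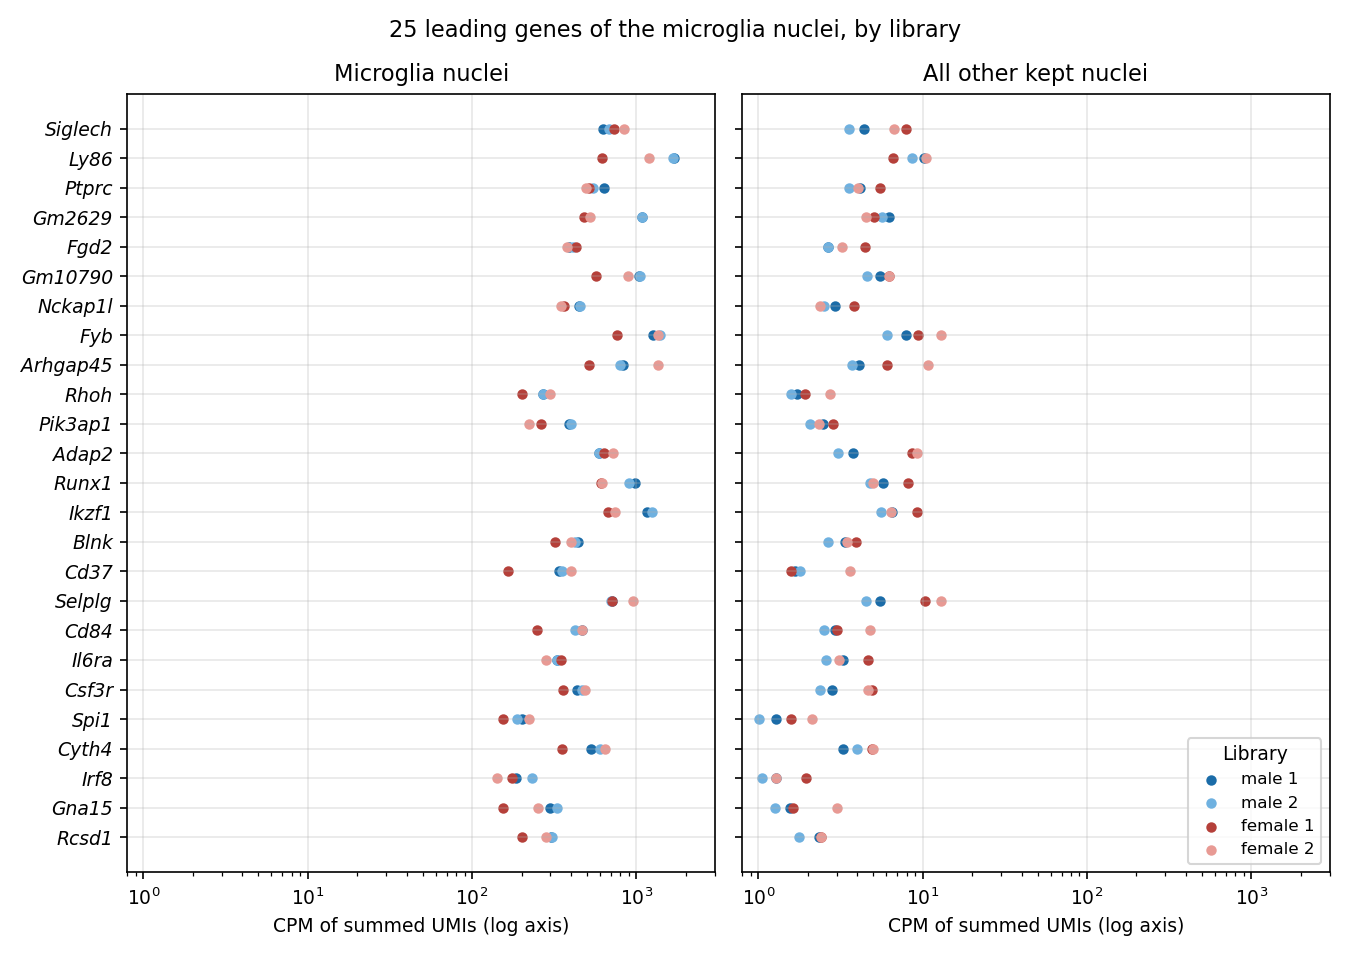
CPM of the 25 leading genes in microglia nuclei (left) and in all other kept nuclei (right), on log axes, with 1 point per library. The genes were picked for this difference; in microglia nuclei Spi1 lay between 155 and 222 CPM and Ly86 between 621 and 1682 CPM, while in the other nuclei all points were below 15 CPM.

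The promoters of the 3 first genes, and those of the leading genes that hold a PU.1-type motif, are shown because these genes are high together in 1 cell type and PU.1 (Spi1) is itself among them. The windows are RefSeq promoters (GRCm38.p6, 250 bases before to 50 after the start) on the strand of the gene. The motif searched was GAGGAAGT on both strands, a form of the site PU.1 is known to bind, and capitals mark its reverse complement.
Siglech (chr7:55767934-55768233, plus strand): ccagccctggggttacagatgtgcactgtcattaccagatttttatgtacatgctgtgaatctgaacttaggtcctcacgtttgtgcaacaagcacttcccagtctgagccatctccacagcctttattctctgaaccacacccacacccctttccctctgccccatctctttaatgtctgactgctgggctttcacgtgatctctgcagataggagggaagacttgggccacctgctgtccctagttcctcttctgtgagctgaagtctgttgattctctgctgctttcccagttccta
Ly86 (chr13:37345095-37345394, plus strand): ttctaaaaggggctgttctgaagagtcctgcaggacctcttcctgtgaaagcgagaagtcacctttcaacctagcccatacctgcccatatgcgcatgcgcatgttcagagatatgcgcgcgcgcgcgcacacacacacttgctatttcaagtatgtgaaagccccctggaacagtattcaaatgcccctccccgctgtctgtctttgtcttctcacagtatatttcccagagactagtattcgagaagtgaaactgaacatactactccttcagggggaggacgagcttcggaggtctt
Ptprc (chr1:138175256-138175555, minus strand): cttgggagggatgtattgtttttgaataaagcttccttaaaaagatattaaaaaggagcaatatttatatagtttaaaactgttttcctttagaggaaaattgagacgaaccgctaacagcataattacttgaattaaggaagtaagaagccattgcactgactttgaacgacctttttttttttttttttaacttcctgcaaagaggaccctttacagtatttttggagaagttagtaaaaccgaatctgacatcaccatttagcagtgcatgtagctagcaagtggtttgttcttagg
Fgd2 (chr17:29360664-29360963, plus strand): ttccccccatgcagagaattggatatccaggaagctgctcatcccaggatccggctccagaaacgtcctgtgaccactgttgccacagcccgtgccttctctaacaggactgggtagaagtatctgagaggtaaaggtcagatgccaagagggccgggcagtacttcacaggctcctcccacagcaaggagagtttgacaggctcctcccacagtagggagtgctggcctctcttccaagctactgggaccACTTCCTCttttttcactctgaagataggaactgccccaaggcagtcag
Cd37 (chr7:45238790-45239089, minus strand): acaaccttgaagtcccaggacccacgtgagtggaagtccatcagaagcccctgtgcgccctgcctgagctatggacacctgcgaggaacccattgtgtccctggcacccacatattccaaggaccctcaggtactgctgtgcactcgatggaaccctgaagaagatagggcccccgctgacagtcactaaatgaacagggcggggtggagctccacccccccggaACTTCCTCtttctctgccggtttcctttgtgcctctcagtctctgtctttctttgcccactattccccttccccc
Cyth4 (chr15:78596797-78597096, plus strand): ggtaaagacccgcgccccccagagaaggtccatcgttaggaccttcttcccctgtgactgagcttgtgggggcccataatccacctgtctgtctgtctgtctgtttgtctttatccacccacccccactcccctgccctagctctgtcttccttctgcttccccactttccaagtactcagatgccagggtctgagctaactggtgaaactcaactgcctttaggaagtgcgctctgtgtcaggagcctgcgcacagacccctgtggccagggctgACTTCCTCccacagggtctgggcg

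Of the 20 leading genes with such a promoter, 3 held the motif, and Fgd2, Cd37 and Cyth4 were thus chosen after their matches were seen. The matches began 1 base after the start in Fgd2, 25 bases before it in Cd37 (position -25) and 26 bases after it in Cyth4. Of the 353 genes at least 4-fold higher that had a promoter in the table, 44 or 12.5% held the motif, against 997 of 27025 genes or 3.69% over the whole table. No match says only that these letters are not in this window.

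The transcription factors that define the lineage were among the genes with large folds. Spi1 had 202, 187, 155 and 222 CPM in microglia nuclei, against at most 2.11 CPM in the other nuclei. Runx1 had 982, 902, 605 and 617 CPM, against 5.76, 4.78, 8.20 and 4.99 CPM, and Ikzf1, the lymphoid and myeloid factor Ikaros, had 1158, 1237, 673 and 742 CPM, against 6.55, 5.59, 9.24 and 6.45 CPM. Both were higher in each male library than in each female library, but the share of all genes with such an ordering was not counted. Of 20 measured factors 13 were at least 4-fold higher in all libraries; the 7 others were Nfatc2, Etv5, Bhlhe41, Cebpb, Cebpa, Bhlhe40 and Tfec. Mef2a and Mef2c, which neurons also express, had smaller folds, from 6.09 upward for Mef2a and from 4.61 upward for Mef2c.

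Genes of the resting state were nearly all high. Of 18 homeostatic genes 17 were at least 4-fold higher in all libraries, among them Tmem119 with 123, 133, 56.9 and 145 CPM in microglia nuclei, against 1.04, 0.845, 1.90 and 2.30 CPM, and Sall1, the factor that holds microglia identity, with 252, 277, 171 and 158 CPM, against 2.84, 2.51, 5.16 and 3.42 CPM. P2ry13 was the exception, since it had 49.8 CPM in male 1 and 15.5 CPM in female 1, both under the minimum of 50 CPM. P2ry12 had 1562, 1666, 543 and 991 CPM in microglia nuclei, against 19.4, 18.8, 72.1 and 36.5 CPM in the other nuclei. Its fold over the other nuclei thus ran from 84.2 in male 2 down to 7.45 in female 1, where microglia nuclei had the least and other nuclei the most.

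Receptors for growth and maintenance signals followed. Tgfbr1, a receptor of transforming growth factor beta, had 2929, 3130, 1936 and 2822 CPM in microglia nuclei, against 37.2, 33.7, 40.8 and 50.1 CPM in the others, and Tgfbr2 had 600, 566, 269 and 445 CPM, against 5.96, 4.75, 6.04 and 7.16 CPM. Csf1r, used in the selection, had 886, 866, 875 and 954 CPM in microglia nuclei. Its ligands were low, with Csf1 between 9.95 and 19.5 CPM and Il34 between 0 and 10.1 CPM in microglia nuclei, while the other nuclei had 15.3 to 28.1 CPM of Il34. Of the 16 genes of this list outside the selection 7 were at least 4-fold higher in all libraries, and the Smad genes Smad2, Smad3, Smad4 and Smad7 were not.

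Immune receptor signalling had a high count. Of 18 genes for Fc receptors, Trem2 and their kinases 16 were at least 4-fold higher in all libraries. Lyn, a Src-family kinase, had 1586, 1479, 864 and 964 CPM in microglia nuclei, against 22.2 to 67.5 CPM in the other nuclei, and Trem2, a lipid-sensing receptor, had 129, 117, 93.2 and 185 CPM, against 1.03, 0.795, 2.65 and 4.30 CPM. Of 13 complement genes 5 passed, among them C1qa, C1qb, C1qc and Itgam, whereas C3 had no UMI in any microglia nucleus. C1qa had 153, 148 and 140 CPM in male 1, male 2 and female 1 but 812 CPM in female 2.

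Of 11 purinergic receptors and nucleotidases 4 passed, namely P2ry12, Entpd1, P2ry6 and P2rx7, and Adora2a had no UMI. Of the receptors for uptake and lipids, Mertk, which binds dying cells, had 2013, 2158, 2003 and 1696 CPM in microglia nuclei, against 49.0, 48.3, 112 and 53.5 CPM, and 6 of 18 passed. Of 18 lysosomal genes 9 passed, among them Ctss, a cathepsin of antigen-presenting cells, with 760, 839, 404 and 883 CPM, against 6.56, 5.57, 6.45 and 13.4 CPM. Of 18 integrin and adhesion genes 8 passed, and of 16 small GTPase regulators of motility outside the selection 8 did.

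Lists of activated states had fewer passing genes than the homeostatic list, though each had a larger share than the 1.68% over all genes. Of 19 disease-associated genes 3 passed, Ctsd, Trem2 and Tyrobp, which homeostatic microglia also express, and the median log2 fold of the list was 1.79, 0.92, 1.15 and 1.21. Cd9, a tetraspanin of this list that did not pass, had 139, 148, 67.3 and 155 CPM in microglia nuclei, against 11.1, 10.6, 15.1 and 38.7 CPM in the others. Other members were low: in the microglia nuclei Itgax had at most 5.17 CPM, Lpl at most 9.95 CPM, and Cst7, Spp1 and Gpnmb at most 3.32 CPM, all at or under the floor of 3 UMIs of their library. Of 18 interferon response genes only Trim30a passed, and Rsad2 and Cxcl10 had no UMI. Of 21 cytokine and NF-kappaB genes Ptgs1 and Rel passed, Il1b had 0, 0, 0 and 3.37 CPM, and Il10, Ccl2, Ptgs2 and Nos2 had no UMI. Of 16 antigen presentation genes Cd86, B2m and H2-K1 passed and Cd40 had no UMI, with a median log2 fold of the list of 3.39, 3.26, 2.54 and 2.98.

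None of 20 immediate early genes passed, none of 12 cell cycle genes did, and 1 of 12 steroid receptors and targets did. Over all genes 1.68% passed, so an empty list of this length is not read as a lack. That 1 was Fkbp5, a co-chaperone of the glucocorticoid receptor, with 491, 492, 574 and 344 CPM in microglia nuclei, against 65.4, 66.3, 67.9 and 60.0 CPM. The immediate early list had a median log2 fold over the other nuclei of 1.22, 1.17, 0.639 and 0.815 in male 1, male 2, female 1 and female 2. Fos went the other way, with 3.32, 0, 0 and 0 CPM in microglia nuclei, against 9.32, 9.38, 4.39 and 4.47 CPM in the other nuclei. Ccnb1, Ccna2, Aurkb, Mcm2 and Mcm5 had no UMI in any microglia nucleus. Of 16 pattern recognition genes Ly86 and Tlr7 passed. Of 14 channel and ion exchanger genes, Slc9a9 and P2rx7 did, the latter also counted among the purinergic receptors.

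**Figure D4:**
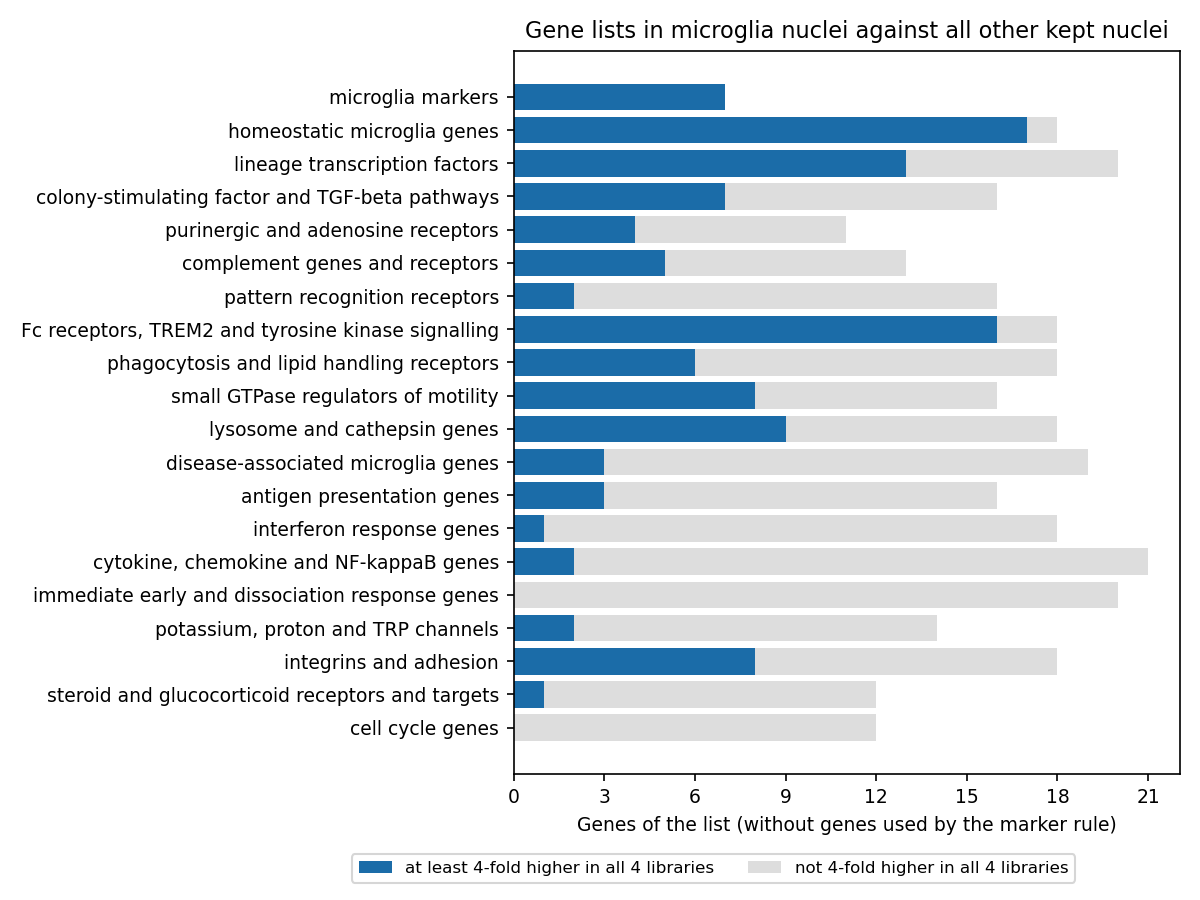
Number of genes of each list (x axis) at least 4-fold higher in microglia nuclei than in all other kept nuclei in all 4 libraries with at least 50 CPM (blue) and the rest of the list (grey). Over all genes with a UMI the share was 1.68%. Homeostatic genes (17 of 18) and Fc receptor and kinase genes (16 of 18) are nearly full bars. Immediate early and cell cycle genes are empty, which at a share of 1.68% is not read as a lack.

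The spread between nuclei of 1 library was described, for 3216 genes seen in at least 10 microglia nuclei of every library, by the ratio of the observed variance to that of counting alone at each nucleus' depth. Genes were ranked by their lowest value over the 4 libraries, which had a median of 0.966 over genes. The first were Gpc5, with at least 6.18 in every library, and Lsamp, with at least 6.05, with at most 93 UMIs in a nucleus. In single libraries other genes lay higher, such as Trpm3 with 19.9 in male 2 and Malat1 with 19.2 in female 2. Gpc5 was seen in 22 of 141 nuclei of male 1, with up to 58 UMIs in 1 nucleus, whereas Lsamp was seen in 111 of them. Both are expressed by astrocytes, oligodendrocyte precursors or neurons. Among microglial genes, Plxdc2 (at least 2.15), Srgap2 (at least 2.13) and Tgfbr1 (at least 1.99) were among the first 30 of this ranking.

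To ask whether microglia nuclei differ between the sexes, which the selection did not use, UMIs were summed per library and 5810 genes compared with the edgeR quasi-likelihood test and Benjamini-Hochberg adjustment. Of these, 4 genes or 0.0688% differed at an adjusted p under 0.05: Xist and Meg3 were lower in males, and Uty and Gm55122 higher. Without adjustment, 266 genes (4.58%) had p under 0.05 and were higher in males and 465 (8.00%) lower. The median log2 fold of all genes was 0.0096.

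Xist, the RNA that coats the inactive X chromosome, had 0 and 0 CPM in the microglia nuclei of the males and 3493 and 3624 CPM in those of the females. Set against 3 UMIs over both male libraries, it was at least 664-fold lower in males (adjusted p = 0.00108). In the females it was also higher in microglia nuclei than in the other nuclei, which had 1530 and 1525 CPM. Of 5 Y-linked genes, 4 had UMIs in the microglia nuclei of the males and none in those of the females, and Usp9y had no UMI in any. Uty had 226 and 195 CPM in males and 0 and 0 CPM in females, at least 34.5-fold higher in males (adjusted p = 0.0495). Eif2s3y had 129 and 89.8 CPM in males and none in females, at least 18.2-fold higher, and its adjusted p of 0.248 did not pass; Ddx3y (96.2 and 62.4 CPM) and Kdm5d (73.0 and 54.6 CPM) had no UMI in the females either and did not pass.

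Meg3, a noncoding RNA of an imprinted region that is abundant in neurons, had 713 and 773 CPM in the microglia nuclei of males and 2996 and 2788 CPM in those of females, a log2 fold of -1.97 ± 0.19 (SE; adjusted p = 0.0495, edgeR quasi-likelihood test). In the other nuclei it had 9990 and 9632 CPM in males and 8701 and 12698 CPM in females. Oligodendrocyte markers were likewise lower in the microglia nuclei of males, as given above. The 7 neuron markers, those of the selection included, summed to 435 and 457 CPM in male microglia nuclei and to 709 and 587 CPM in female ones. Without the nuclei that hold markers of another cell type the log2 fold of Meg3 was -2.19 ± 0.20 (adjusted p = 0.000733, edgeR quasi-likelihood test). Nuclei with fewer such UMIs stay in that fit, and the part of RNA from other cells in the Meg3 difference was not tested.

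Gm55122, a noncoding gene (chr13:83723442-83729582, minus strand) that overlaps C130071C03Rik on the opposite strand, had 182 and 219 CPM in males and 0 and 3.37 CPM in females. The ratio was 97.5 with 1 UMI in the females (exact 95% counting interval 17.1 to 3885), and the adjusted p was 0.0495. The deposited gene lists give this identifier as Gm55122 in the males and as Gm26803 in the females, as they do with different names for 88 of the 5810 genes, and whether the gene model is the same in both annotations was not tested. In the other nuclei it had 92.1 and 90.9 CPM in males and 7.32 and 6.45 CPM in females. Gm2244, the gene next in order of p, had 92.9 and 74.1 CPM in males and 0 and 0 CPM in females (at least 13.8-fold higher, adjusted p = 0.248, not passing), with at most 0.451 CPM in the other nuclei of any library.

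**Figure D5:**
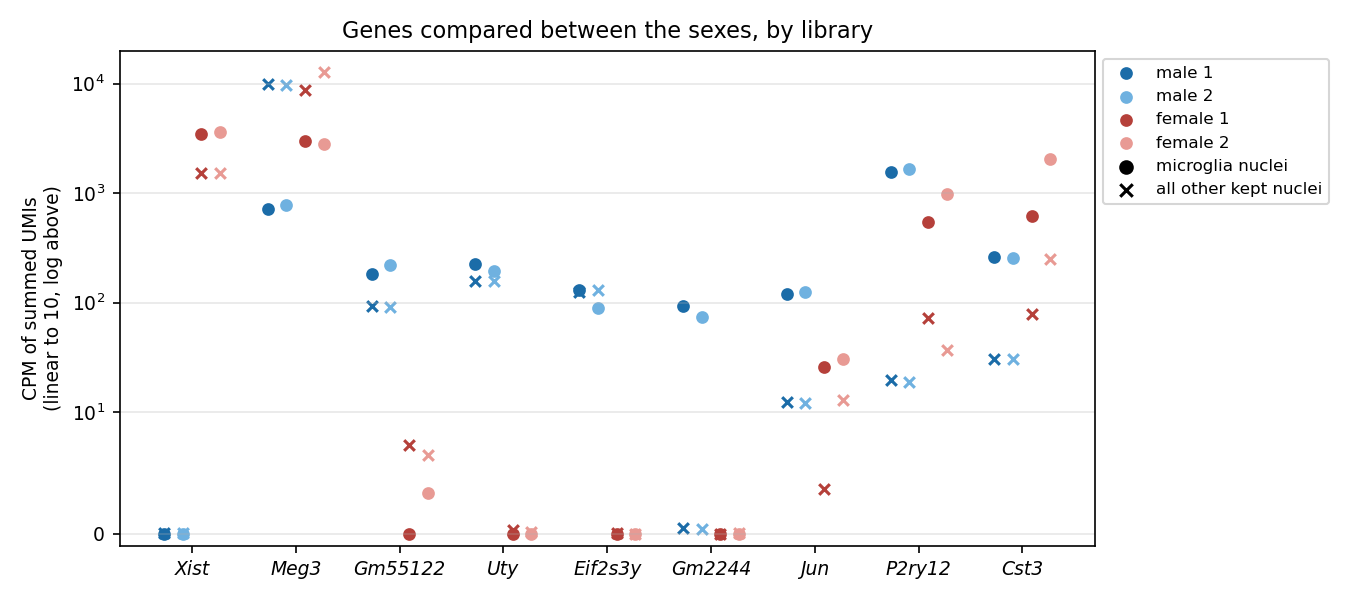
CPM by library of genes compared between the sexes, in microglia nuclei (circles) and all other kept nuclei (crosses), on an axis that is linear up to 10 CPM and logarithmic above. Xist, Meg3, Gm55122 and Uty passed the adjusted test; Eif2s3y, Gm2244, Jun, P2ry12 and Cst3 did not.

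Apart from the genes of the sex chromosomes, no gene of the lists passed the adjusted test, and values are given without a call. Of 18 homeostatic genes, 2 were higher and 1 lower in males at an unadjusted p under 0.05, with a median log2 fold of 0.29. Over all tested genes, 4.58% were higher and 8.00% lower at that limit. P2ry12 had a log2 fold of 1.05 ± 0.31 (SE, adjusted p = 0.316, edgeR). Among alternatives with all libraries it passed only without the filter on low counts (adjusted p = 9.16e-05, edgeR). Its log2 fold ran from 0.73 to 1.55 over all alternatives. Cst3, an abundant protease inhibitor, went the other way, with 262 and 254 CPM in males and 616 and 2070 CPM in females (log2 fold -2.41 ± 0.54, adjusted p = 0.315, edgeR). In the other nuclei Cst3 had 30.4 and 30.3 CPM in males and 78.2 and 252 CPM in females, so the ordering of the libraries was the same there. Cst3 passed in 7 of its 12 alternatives, among them DESeq2 (adjusted p = 0.00301) and the fit without nuclei that hold markers of another cell type (adjusted p = 0.0254, edgeR), with adjusted p up to 0.350 in the others and log2 folds from -2.97 to -1.27.

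Of 16 lineage transcription factors, 7 were higher in males at an unadjusted p under 0.05 and none was lower, with a median log2 fold of 0.54. Over all tested genes, 4.58% were higher and 8.00% lower at that limit. DESeq2 put 1 of the 16 factors under that limit. The oligodendrocyte markers (4 of 4 lower in males, median log2 fold -2.25) moved with sex beside the factors. Without the nuclei that hold markers of another cell type the count for the factors was 6 of 16 and the median 0.30. Jun, an immediate early gene, had 119 and 125 CPM in males and 25.9 and 30.3 CPM in females (adjusted p = 0.248, edgeR). Nlrp3, the inflammasome sensor, had 116 and 121 CPM in males and 41.4 and 43.8 CPM in females (adjusted p = 0.316, edgeR). Among alternatives with all libraries, Jun passed only without the filter on low counts (adjusted p = 0.00193, edgeR), and Nlrp3 did not pass. Apoe had 179 and 137 CPM in males and 367 and 1072 CPM in females (adjusted p = 0.316, edgeR), and in the other nuclei 68.5 and 71.5 CPM in males and 169 and 454 CPM in females. Apoe passed in 5 of 12 alternatives, among them DESeq2 (adjusted p = 0.0146) and the fit without nuclei that hold markers of another cell type (adjusted p = 0.0451, edgeR), with adjusted p up to 0.350 in the others. Thinned to 1000 UMIs per nucleus, the log2 fold of Nlrp3 was 0.76 in place of 1.44. For Jun and Nlrp3 the males lay above the females without overlap, and for Apoe below them. Even without overlap, an exact permutation test of 2 against 2 libraries cannot go below p = 0.333. The share of all tested genes without overlap was not counted, so these orderings are description only. Of the 8 tested X-linked genes known to escape inactivation, all had a log2 fold below 0, with a median of -0.50, but Xist, which is in this list, was the one with an unadjusted p under 0.05.

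Female 1 and female 2 lay further apart than the male libraries. Taken over genes, the log2 ratio of male 1 to male 2 had an SD of 0.505, and that of female 1 to female 2 an SD of 0.829. The female libraries were also counted with different versions of the software Cell Ranger, 7.0.0 with 55357 listed genes and 7.2.0 with 32285. Both male libraries had version 9.0.1 with 33696 listed genes. The part of this in the spread was not tested. Itgam, the complement receptor subunit CD11b, had 474 and 523 CPM in males and 56.9 and 307 CPM in females. The median share of mitochondrial UMIs in microglia nuclei was 0.0359% and 0.0444% for males and 0.0911% and 0.410% for females. Without female 2 the sex comparison called 711 genes, and without female 1 it called 215; in both fits the spread comes from the male libraries alone, so these counts assume that the lone female library varies as little as they do.

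Whether the sex difference in microglia nuclei differs from that in the other nuclei was tested with a sex by cell group term over all 8 sums in edgeR. None of the 5810 genes passed the adjusted test (0.00%), while 534 (9.19%) had an unadjusted p under 0.05 with a term above 0 and 457 (7.87%) with a term below 0. Among the smallest p-values were those of the Src-family kinase Lyn (log2 term 2.02 ± 0.25) and of 4930517O19Rik (1.98 ± 0.27), each with an adjusted p of 0.0677. Lyn passed with median-ratio size factors (adjusted p = 0.0147, edgeR). It did not pass with a marker limit of 4 UMIs (0.0740) or with doublet scores removed (0.0627). Slc24a2 (-2.31 ± 0.36), Pycard (2.03 ± 0.32) and Pnpla7 (1.06 ± 0.18) followed at 0.113. Pycard, the adaptor of inflammasomes, had 143 and 187 CPM in males and 72.5 and 155 CPM in females in microglia nuclei, and 4.81 and 4.62 CPM in males and 12.1 and 16.3 CPM in females in the other nuclei. Pnpla7, a lysophospholipase, had 381 and 468 CPM in males and 373 and 391 CPM in females in microglia nuclei, and 22.3 and 21.9 CPM in males and 44.4 and 43.5 CPM in females in the other nuclei. For Lyn, Pycard and Pnpla7 alike, both male libraries lay below both female libraries in the other nuclei. How many of all genes have that ordering was not counted. Slc24a2, a sodium, potassium and calcium exchanger that neurons express, had 66.3 and 93.7 CPM in males and 719 and 270 CPM in females in microglia nuclei, and 475 and 460 CPM in males and 741 and 423 CPM in females in the other nuclei. The noncoding gene 4930517O19Rik lies antisense over Klf12, and reads of the pair could not be told apart if strand was not used in counting. When the other nuclei that met the marker limit were left out, a choice made after seeing the data, 140 genes passed, and without the microglia nuclei that hold markers of another cell type 359 did.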

How the data were processed

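Droplet single-nucleus RNA sequencing was measured in 4 libraries, 2 male and 2 female. The authors deposited whole-number UMI counts per gene and barcode, with gene and barcode lists. Tools named by the submitters' processing notes are Cell Ranger 6.0.1 and Seurat 5, with mm10 as the build; per the file headers, Cell Ranger 9.0.1 wrote the male matrices, 7.0.0 that of female 1 and 7.2.0 that of female 2. The counts summed to 158132452, 144035342, 53098268 and 53679351 UMIs. The 31899 genes listed in all libraries were used, which held at least 97.7% of the UMIs of each library.

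Nuclei with 500 to 8000 genes and under 5% mitochondrial counts were kept. No barcode was shared between microglia nuclei of any libraries. Doublets were guarded against by the limits on other cell types; Scrublet (scanpy 1.11.5) marked 0% of 3 libraries with its automatic threshold, so it had not worked there, and removal of the highest scores at 0.8% per 1000 barcodes was an alternative. UMIs were summed over microglia nuclei and over all other kept nuclei per library. Sex was tested with edgeR 4.0.16 (TMM, filterByExpr, quasi-likelihood test, two-sided, Benjamini-Hochberg over all genes tested, threshold 0.05), with DESeq2 1.42.0 as an alternative. Intervals and the floor of 3 UMIs cover counting error only. Coordinates are those of GENCODE vM21 (GRCm38).

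Genes from 31 lists (367 of 369 matched) were described. Named were the 25 genes with the largest smallest fold, the genes called between the sexes or, with fewer than 6 called, the 6 with the smallest p, up to 4 genes with the highest level and those at 0 of each list, the sex-linked genes and the genes of the selection; other genes, among them Cst7, Spp1, Lpl, P2ry13 and Nlrp3, were chosen after their values were seen. The members and gene lists were chosen with earlier results of these data known. Replicate numbers did not pair males with females: there were 2 pairs, and the labels give no shared litter, batch or day. Some genes that this rule names are not reported here.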

Additional observations from a re-analysis of the deposited data

How the results depend on the processing

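The count of genes at least 4-fold higher was 460, between 465 and 585 with 1 library left out, and 863 without the minimum level; its 6 other alternatives, from 376 to 501, stayed within 1.5 times. The share difference between the sexes ran from -0.351 to 0.472 percentage points with 1 library left out, changing sign without male 1 (-0.0441) and without female 1 (-0.351); it was 0.276 with a marker limit of 4 UMIs and 0.0607 with the replicate block, which for a share is the mean difference within numbers. The count of genes that differ between the sexes was 4, between 11 and 711 with 1 library left out (11 without male 1, 19 without male 2, 215 without female 1), 21 with DESeq2, 201 without a filter on low counts, 2 with a marker limit of 4, 1 with doublet scores removed and 33 without nuclei that hold markers of another cell type, the last chosen after seeing the data. With the replicate block it was 6, and same-numbered libraries had a correlation of their deviations of 0.106, from 2 pairs. The count of genes whose sex difference differs from that in the other nuclei was 0, between 26 and 716 with 1 library left out (58 without male 1, 34 without male 2, 26 without female 1), 4 with median-ratio size factors and 270 without a filter, and, with choices made after seeing the data, 140 without the other nuclei that met the marker limit and 359 without nuclei that hold markers of another cell type. The cause of these changes was not tested. With 1 library left out, the lone library of that sex is assumed to vary like the pair of the other sex. Xist passed under all 12 of its alternatives, Meg3 under 11, and Uty and Gm55122 under 10. With 193235 to 301482 UMIs in the microglia nuclei of a library, levels under 9.95 to 15.5 CPM rest on fewer than 3 UMIs.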
